A study of Mus musculus with 16 samples.

Results

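*Spink7*, the gene of a secreted Kazal-type serine protease inhibitor, and the *Tmprss11* genes, which encode membrane-anchored serine proteases, were followed in mouse dorsal skin after ultraviolet B (UVB) irradiation. The members were chosen by symbol, as *Spink7* and *Tmprss11a*, *b*, *bnl*, *d*, *e*, *f* and *g*, in an annotation of the 55359 gene identifiers counted. The 8 symbols gave 7 genes, since *Tmprss11bnl* is an older RefSeq symbol of *Tmprss11b*. The series holds poly(A) RNA libraries from whole dorsal skin of 16 wild-type C57Bl/6 mice (C57Bl/6N in the study's results). The mice were 8 weeks old, with the hair follicles in telogen, the resting phase. Dorsal skin of 4 males and 4 females received UVB 3 times, once every 2 days, and was collected 6 h after the last exposure, on day 5. The controls were 4 males and 4 females that were not irradiated, and the labels give no transgene or other treatment in any group. The question put by the design is how the response of the skin to UVB differs between males and females.

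Serine proteases of the Tmprss11 group sit in the plasma membrane of squamous epithelial cells with the catalytic domain outside the cell, and cut after arginine or lysine. They are known from the lining of the airway, mouth and oesophagus, where they can activate other proteins by cleavage, including protease-activated receptor 2. SPINK7 is best known from the differentiated epithelium of the oesophagus, where it restrains kallikrein 5 and the urokinase-type plasminogen activator.

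The 6 *Tmprss11* genes lie side by side on the minus strand of chromosome 5 of GRCm39, within 444 kb from 86450076 to 86893674. In order of coordinate they are *Tmprss11d* (ENSMUSG00000061259.12, 86450076 to 86554872), *Tmprss11a* (ENSMUSG00000072845.4, 86558269 to 86616849), *Tmprss11g* (ENSMUSG00000079451.10, 86633735 to 86666459), *Tmprss11f* (ENSMUSG00000048764.17, 86669757 to 86780283), *Tmprss11b* (ENSMUSG00000035861.7, 86805490 to 86824221) and *Tmprss11e* (ENSMUSG00000054537.9, 86853045 to 86893674). All 6 are protein-coding genes, and the coordinates span their exons and introns.

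The catalytic serine defines the protease family, so the stretch around its codon is shown for the 6 proteases, read from the GRCm39 genome along each GENCODE M39 coding sequence. Each run has 60 bases from 5′ to 3′. The 18 capitals are the 6 codons of the active-site motif, of which the third is the codon of the catalytic serine.
Tmprss11a: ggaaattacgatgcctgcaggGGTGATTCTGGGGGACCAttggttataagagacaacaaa
Tmprss11b: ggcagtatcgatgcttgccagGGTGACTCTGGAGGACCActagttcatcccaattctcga
Tmprss11d: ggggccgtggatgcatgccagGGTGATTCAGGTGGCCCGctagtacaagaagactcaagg
Tmprss11e: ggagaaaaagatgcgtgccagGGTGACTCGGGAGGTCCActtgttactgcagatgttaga
Tmprss11f: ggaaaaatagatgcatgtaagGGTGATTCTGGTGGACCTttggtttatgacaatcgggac
Tmprss11g: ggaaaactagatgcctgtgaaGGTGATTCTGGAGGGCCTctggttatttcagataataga
The serine was encoded by codon 339 in *Tmprss11a*, 366 in *Tmprss11b*, 367 in *Tmprss11d* and *Tmprss11g*, 373 in *Tmprss11e* and 390 in *Tmprss11f*, of coding sequences with 389 to 439 codons. All 6 genes held the codon gat at 6 codons before the serine, the place where proteases of trypsin-like specificity have an aspartate. The 6 runs of capitals all differed from each other, and 13 of the 18 capital positions, or 26 of the 60 positions, were identical in all 6 genes. Over the whole coding sequences, the 15 pairs of genes were 57.7 to 64.1% identical (median 59.7%), with no identical run longer than 23 bases. No reads that map to more than 1 place were counted at a gene, so the counts of the neighbours were not shared between them by that route.

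Counts at genes ranged from 16495776 to 33404831 per mouse, and levels are given as CPM, the count of a gene relative to the library total, scaled by the trimmed mean of M-values (TMM). The floor of detection was set at 3 counts in a library, which came to between 0.125 and 0.15 CPM as a group mean. Group mates correlated at 0.9852 to 0.9902 over genes, as mean correlation of a library with its group, and no library was left out of the results below. Each library stands for 1 mouse, and which mice were handled or sequenced together is not given in the sources used here. In whole skin, fewer cells of a type and less RNA per cell cannot be told apart.

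*Spink7*, the inhibitor, went from a few reads in control skin to at least 686 counts in each irradiated male. The gene (ENSMUSG00000060201.6, protein-coding) is on the minus strand of chromosome 18, from 62725265 to 62729398. The no-UVB males had 0.0466, 0.0460, 0.0866 and 0.115 CPM (1, 1, 2 and 2 counts). The UVB males had 53.6, 45, 43.3 and 35.8 CPM (1721, 705, 821 and 686 counts). All 4 irradiated males were thus far above every control, and their spread was narrow, at 44.4 ± 7.32 CPM (SD, n = 4). This mean was at least 306-fold higher than the floor of the control group. The no-UVB females had 0.0433, 0, 0.0655 and 0 CPM (1, 0, 2 and 0 counts). The UVB females had 2.37, 13.1, 4.41 and 1.86 CPM (46, 362, 103 and 40 counts). The irradiated females were also all above their controls, by at least 43.5-fold on the group mean of 5.42 ± 5.2 CPM. That mean leaned on UVB female replicate 2, without which it was 2.88 CPM.

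**Figure D1:**
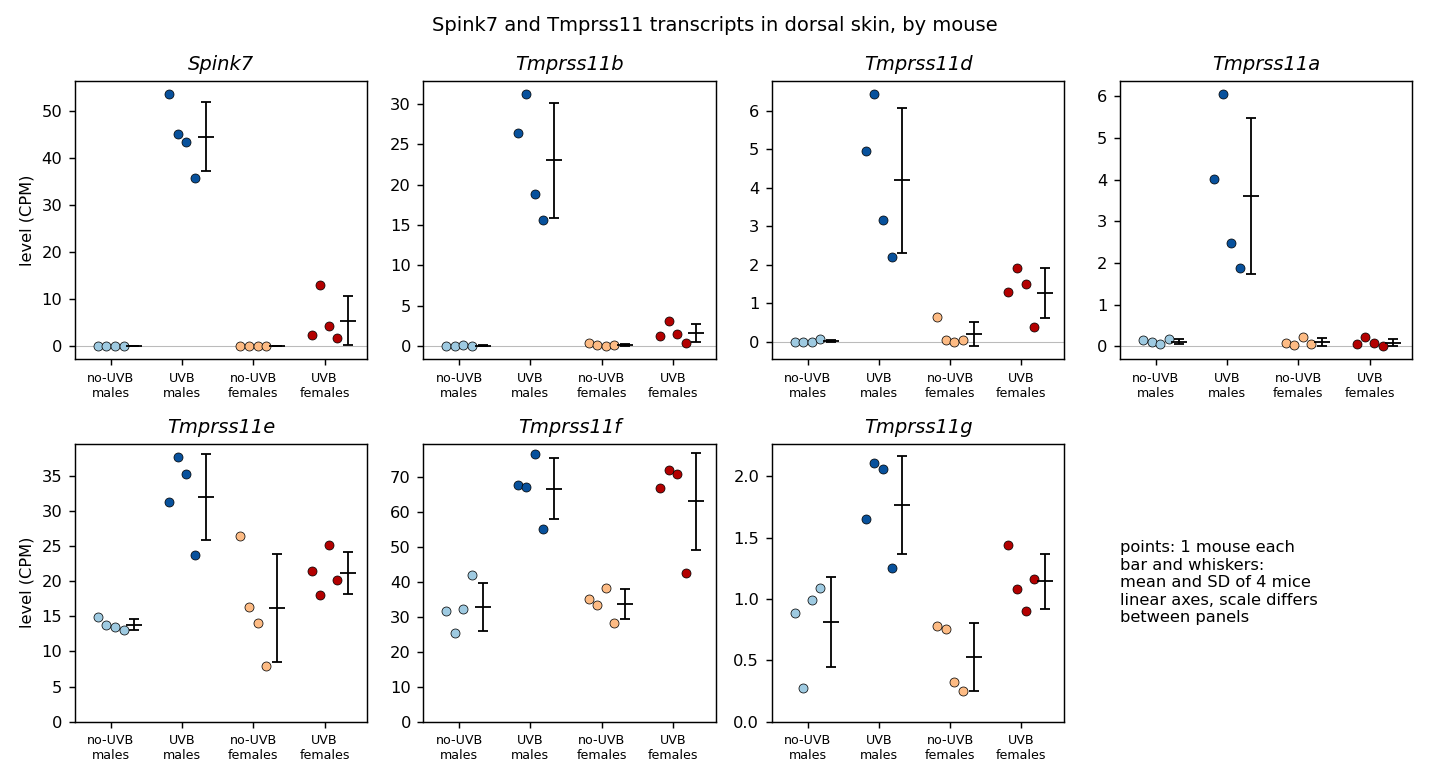
Level of each gene in CPM (vertical axes, linear, scale differs between panels) in no-UVB males, UVB males, no-UVB females and UVB females; each point is 1 mouse, and the bar and whiskers are the mean and SD of 4 mice. *Spink7*, *Tmprss11b*, *Tmprss11d* and *Tmprss11a* (upper row) were near 0 in the controls, with every UVB male above every UVB female, whereas *Tmprss11e*, *Tmprss11f* and *Tmprss11g* (lower row) were already present in the controls.

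*Tmprss11b*, a protease known from squamous epithelia and squamous carcinoma, went from the floor in control males to at least 300 counts in each of the irradiated males. The no-UVB males had 0, 0, 0.13 and 0 CPM, which is 3 counts in 1 mouse and none in the others. The UVB males had 26.4, 31.3, 18.8 and 15.6 CPM (849, 491, 357 and 300 counts). Their mean of 23.1 CPM was 159 times the floor of the no-UVB males, a lower bound on the change of the mean. Irradiated females had the gene at a much lower level than irradiated males. The no-UVB females had 0.346, 0.0793, 0.0655 and 0.101 CPM (8, 2, 2 and 2 counts), and the UVB females had 1.29, 3.14, 1.54 and 0.418 CPM (25, 87, 36 and 9 counts). The 2 groups of females did not overlap, with a ratio of means of 10.8, and the lowest irradiated female lay just above the highest control. Without that control, replicate 1, the no-UVB female mean was 0.0819 CPM in place of 0.148 CPM.

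*Tmprss11d*, the mouse counterpart of human airway trypsin-like protease, was nearly absent from control males, with 0, 0, 0 and 0.0573 CPM (1 count in all). The UVB males had 4.95, 6.44, 3.17 and 2.19 CPM (159, 101, 60 and 42 counts). Their mean of 4.19 CPM was 28.9 times the floor of the no-UVB males, again a lower bound. The no-UVB females had 0.65, 0.0396, 0 and 0.0505 CPM (15, 1, 0 and 1 counts), and the UVB females had 1.29, 1.91, 1.5 and 0.372 CPM (25, 53, 35 and 8 counts). Here the groups of females overlapped, since the control with 15 counts was above the lowest irradiated mouse, and the ratio of means was 6.85. Without that control the no-UVB female mean was 0.0301 CPM in place of 0.185 CPM.

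*Tmprss11a*, another protease of upper digestive and airway epithelium, had the largest ratio between irradiated males and irradiated females of the 7 members when only reads on the strand of the gene were counted. The no-UVB males had 0.140, 0.0921, 0.0433 and 0.172 CPM (3, 2, 1 and 3 counts). The UVB males had 4.02, 6.06, 2.48 and 1.88 CPM (129, 95, 47 and 36 counts). The mean of the UVB males, 3.61 CPM, was 24.9 times the floor of the no-UVB males, a lower bound on the change of the mean. In females no rise was detectable at this depth. The no-UVB females had 0.0866, 0.0396, 0.229 and 0.0505 CPM (2, 1, 7 and 1 counts) and the UVB females had 0.0515, 0.216, 0.0857 and 0 CPM (1, 6, 2 and 0 counts). Reads on the opposite strand of *Tmprss11a* numbered 8 to 21 in each of these females and control males, more than on its own strand, so that its level near the floor depends on counting by strand. Counted without regard to strand, it was at 4.0 CPM in UVB males and 0.686 CPM in UVB females, a smaller ratio than those of *Tmprss11b* (23.8 and 1.67 CPM) and *Spink7* (45.9 and 5.59 CPM).

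*Tmprss11e*, *Tmprss11f* and *Tmprss11g* formed the other kind of member, present without UVB and from 2.03 to 2.32 times as high in irradiated males on the group means. *Tmprss11e*, known as DESC1 in squamous epithelia, had 14.9, 13.7, 13.5 and 13.1 CPM in no-UVB males and 31.3, 37.7, 35.2 and 23.8 CPM in UVB males, with no overlap and a ratio of 2.32. In females it overlapped, at 26.5, 16.3, 14.1 and 7.93 CPM without UVB and 21.5, 18, 25.1 and 20.2 CPM with UVB, a ratio of 1.31. The control females thus spread more widely for this gene than any of the other groups.

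*Tmprss11f*, which encodes a further protease of this group and had the highest level per kb in control skin, had 31.6, 25.5, 32.3 and 42.0 CPM in no-UVB males and 67.9, 67.1, 76.7 and 55.3 CPM in UVB males, a ratio of 2.03. It had 35.1, 33.3, 38.4 and 28.3 CPM in no-UVB females and 66.9, 72.0, 71.1 and 42.5 CPM in UVB females, a ratio of 1.87. Neither sex showed overlap between irradiated and control mice. *Tmprss11g* stayed low throughout, at 0.885, 0.276, 0.996 and 1.09 CPM in no-UVB males, 1.65, 2.11, 2.06 and 1.25 CPM in UVB males, 0.780, 0.753, 0.327 and 0.253 CPM in no-UVB females and 1.44, 1.08, 0.9 and 1.16 CPM in UVB females. Its irradiated mice were above the controls in both sexes, with ratios of 2.18 in males and 2.17 in females.

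These UVB responses are the contrast by which the members were picked, so the fitted changes and the calls are a description and carry no p-value. A gene was called at an adjusted p under 0.1 with a fitted log2 fold change past 1. In males 7 of 7 members were called higher, where 4.08% of the 16535 genes tested were. Their fitted log2 fold changes were 9.18 (SE 0.233) for *Spink7*, 9.13 (SE 0.510) for *Tmprss11b*, 7.89 (SE 0.688) for *Tmprss11d* and 5.0 (SE 0.522) for *Tmprss11a*. These 4 values depend on the prior count of the fit, because the controls were at the floor. Each SE is the size of the fitted value divided by the square root of edgeR's F statistic. With so few control counts, it does not show how closely these 4 values are known. For the members with measurable controls the fitted log2 fold changes were 1.23 (SE 0.129) for *Tmprss11e*, 1.14 (SE 0.335) for *Tmprss11g* and 1.05 (SE 0.147) for *Tmprss11f*. Without no-UVB male replicate 2, *Tmprss11f* and *Tmprss11g* were no longer called, and without UVB male replicate 3 *Tmprss11f* was not. In females 5 members had enough counts to be tested, and 3 were called higher, where 1.63% of 16883 genes were. They were *Spink7* at 7.29 (SE 1.03), *Tmprss11d* at 2.85 (SE 0.833) and *Tmprss11g* at 1.11 (SE 0.345). *Tmprss11f*, at 0.91 (SE 0.164), and *Tmprss11e*, at 0.39 (SE 0.288), were not past a log2 fold change of 1, and *Tmprss11a* and *Tmprss11b* did not pass the filter on low counts. *Spink7* was called without each of the 8 mice in turn, whereas the number of members called ranged from 2 to 4. *Tmprss11d* was no longer called without UVB female replicate 1, 2 or 3 or no-UVB female replicate 2 or 4, and *Tmprss11g* without UVB female replicate 1 or 4 or no-UVB female replicate 3 or 4. *Tmprss11b* passed the filter and was called without UVB female replicate 1 or 4 or any 1 no-UVB female, and in the fit of all 16 mice. With every gene of at least 1 count tested, *Tmprss11b* was called and *Tmprss11d* was not, and *Tmprss11f* was called without UVB female replicate 4.

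The level after irradiation was then compared between the sexes, with all 16 mice in 1 fit and edgeR's quasi-likelihood test. Of the 7 members, 4 were higher in UVB males than in UVB females at an adjusted p under 0.1, where 12.8% of the 17406 genes tested were. For all 4, each irradiated male was above each irradiated female, which held for 11.5% of these genes. In control males these 4 were at the floor, so the level after UVB is nearly the response itself, by which they were picked, and no p-value is given for them. *Tmprss11a* and *Tmprss11b* also had too few counts in females to be tested among the 8 females alone, and passed the filter on low counts through the UVB males. *Tmprss11a* was 40.8 times as high in males on the group means, a ratio that rests on 9 reads in the 4 females, with a fitted log2 difference of 5.14 (SE 0.539) that was 6.11 without UVB female replicate 2 and 2.53 without regard to strand. *Tmprss11b* was 14.4 times as high (log2 difference 3.80, SE 0.396), with a log2 difference of 4.4 without UVB female replicate 2. *Spink7* was 8.19 times as high (log2 difference 2.99, SE 0.418), and its log2 difference was 3.93 without UVB female replicate 2. *Tmprss11d* was 3.3 times as high (log2 difference 1.70, SE 0.524), and it was not called without UVB male replicate 2 (1.44), with every gene of at least 1 count tested or in the DESeq2 Wald test.

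The remaining 3 proteases did not pass the threshold between irradiated males and females. The log2 difference was 0.59 (SE 0.245, edgeR adjusted p = 0.108) for *Tmprss11e*, 0.62 (SE 0.336, edgeR adjusted p = 0.213) for *Tmprss11g* and 0.08 (SE 0.166, edgeR adjusted p = 0.778) for *Tmprss11f*. *Tmprss11e* lay near the threshold and passed it without UVB female replicate 3, no-UVB female replicate 1 or 4, or UVB male replicate 4, with edgeR adjusted p from 0.0312 to 0.0977. It also passed with DESeq2 size factors (edgeR adjusted p = 0.096) and in the DESeq2 Wald test (0.62, adjusted p = 0.0526).

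**Figure D2:**
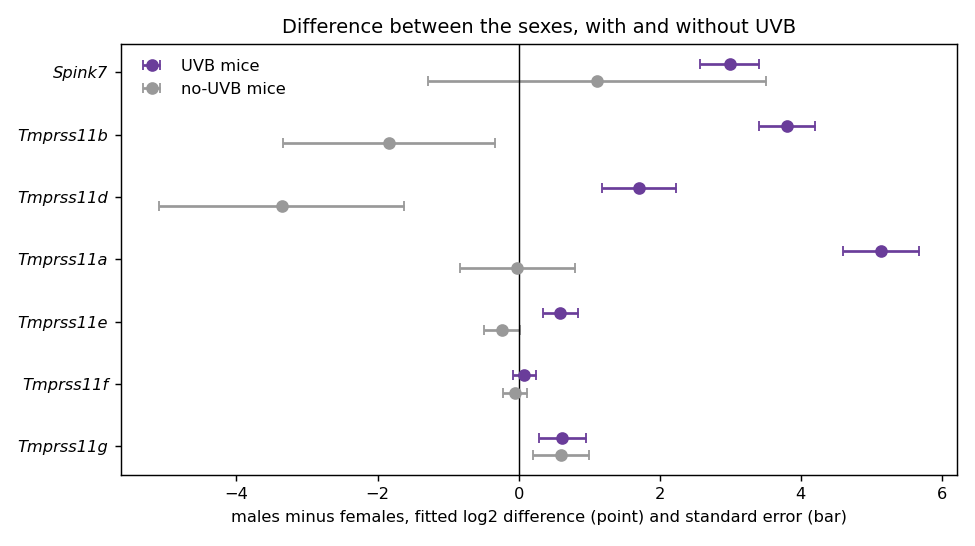
Fitted log2 difference between males and females (horizontal axis, males minus females) for each gene in UVB mice (purple) and no-UVB mice (gray). Points are estimates, with n = 4 mice in each group. Bars are standard errors, taken as the size of the log2 difference divided by the square root of the F statistic. *Tmprss11a* (5.14), *Tmprss11b* (3.80), *Spink7* (2.99) and *Tmprss11d* (1.70) lay to the right of 0 in UVB mice, and the wide gray bars belong to genes at or near the floor in the controls.

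Without UVB no member differed between the sexes at an adjusted p under 0.1 in edgeR, where 11.8% of all genes tested did in either direction. Before adjustment, 0 of 7 had an edgeR p under 0.05. *Spink7*, *Tmprss11a*, *Tmprss11b* and *Tmprss11d* were at the floor in control males, and *Spink7* in control females as well. For these genes the lack of a call says little about a difference. *Tmprss11d* had the largest value, at a log2 difference of -3.36 (SE 1.74, edgeR adjusted p = 0.277), and the DESeq2 Wald test called it lower in males (-3.66, adjusted p = 0.0792). That value rests on the 15 counts of no-UVB female replicate 1. For *Tmprss11f* (-0.05, SE 0.170) and *Tmprss11e* (-0.24, SE 0.253), which had at least 157 counts in every mouse, the control males and females overlapped.

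The difference between the responses of males and females was fitted as an interaction. It is built from the same UVB responses by which the members were picked, so it is given as a description with no p-value. At the threshold of 0.1, 2 of 7 members were called with the larger response in males, where 2.75% of the 17406 genes were. The fitted interaction was 5.16 on the log2 scale (SE 1.12) for *Tmprss11a* and 5.64 (SE 1.54) for *Tmprss11b*, and both values rest on control males at the floor. For *Tmprss11a* it was 2.76 without regard to strand and 6.13 without UVB female replicate 2, and the gene was not called without no-UVB female replicate 3, where it was 4.33. For *Tmprss11b* it was 8.53 without no-UVB male replicate 3, the control male with 3 counts, 6.24 without UVB female replicate 2 and 4.84 without no-UVB female replicate 1. *Tmprss11b* was not called without UVB female replicate 1, no-UVB female replicate 1, UVB male replicate 1 or no-UVB male replicate 1 or 2, nor with every gene of at least 1 count tested.

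For *Spink7* the interaction was 1.89 (SE 3.26), and with 0 to 2 counts in every control mouse the response in either sex is known only as a lower bound. The fitted value for *Spink7* was 1.07 without no-UVB female replicate 3 and 2.83 without UVB female replicate 2. *Tmprss11d* had a value of 5.06 (SE 1.75), which was 2.57 without no-UVB female replicate 1, the control with 15 counts, and 6.74 without no-UVB male replicate 4, the control male with 1 count. *Tmprss11d* was called without no-UVB female replicate 3 (5.55), in the DESeq2 Wald test (5.4) and with the replicate number as a block (5.04). *Tmprss11e* had a value of 0.83 (SE 0.352) and was called without no-UVB female replicate 4 (1.07). *Tmprss11f* and *Tmprss11g* had values of 0.13 (SE 0.238) and 0.02 (SE 0.605).

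For the order of levels between genes, CPM was divided by the length of the Ensembl canonical transcript in kb. In UVB males *Spink7* led, with 82.3 ± 13.5 CPM per kb (SD, n = 4), followed by *Tmprss11f* at 18.5 ± 2.44 and *Tmprss11e* at 9.37 ± 1.78 CPM per kb. *Tmprss11b* came next at 5.53 ± 1.71 CPM per kb, and its mice overlapped those of *Tmprss11e*. *Tmprss11d* (1.54 ± 0.696), *Tmprss11a* (1.36 ± 0.703) and *Tmprss11g* (0.615 ± 0.139 CPM per kb) closed the order, each overlapping the next. In UVB females *Tmprss11f* led at 17.5 ± 3.86 CPM per kb, but its mice overlapped those of *Spink7* at 10 ± 9.64, which in turn overlapped *Tmprss11e* at 6.21 ± 0.865 CPM per kb. Without UVB the order was led in both sexes by *Tmprss11f*, at 9.11 ± 1.90 in males and 9.37 ± 1.17 CPM per kb in females, with *Tmprss11e* next and no overlap between them.

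The make-up of the protease group was read as shares of its summed counts, without division by length, since each share was compared only with that of the same gene. The summed level of the 6 *Tmprss11* genes was 39.5 to 56.4 CPM in no-UVB males and 100 to 151 CPM in UVB males, and 36.7 to 63.5 and 64.6 to 100 CPM in the females. *Tmprss11b* took 13.6 to 20.8% of these reads in UVB males, 0.65 to 3.25% in UVB females and no more than 0.55% in any control mouse. *Tmprss11f* made up 64.4 to 74.5% of the reads in no-UVB males and 44.5 to 55.4% in UVB males, with its own level 2.03 times as high in the latter. Its share was 55.3 to 77.1% in no-UVB females and 65.8 to 74.7% in UVB females.

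**Figure D3:**
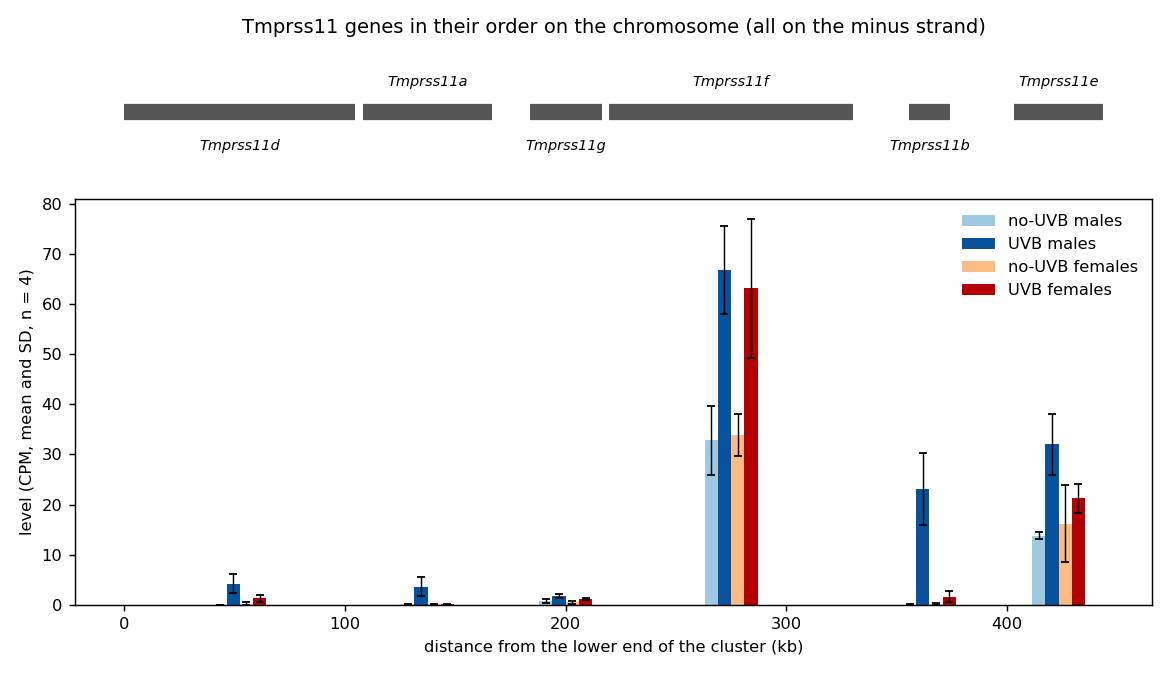
The 6 *Tmprss11* genes drawn to scale along the cluster (horizontal axis, distance in kb from its lower end), with the mean level in CPM and its SD (n = 4 mice) in each group below each gene. Genes with a large change in UVB males (*Tmprss11d*, *Tmprss11a* and *Tmprss11b*) held the first, the second and the fifth place, and genes that were present in the controls (*Tmprss11g*, *Tmprss11f* and *Tmprss11e*) the others.

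Position in the cluster did not sort the members by response. From the lower coordinate the genes with controls near the floor were the first, the second and the fifth, and *Tmprss11g*, *Tmprss11f* and *Tmprss11e* stood between and after them. Of 35 other annotated genes in the cluster or within 500 kb of it, 4 had enough counts to be tested, and their fitted log2 fold changes for UVB lay between -0.58 and 0.23 over both sexes. The nearest tested gene on the lower side was *Uba6*, a ubiquitin-activating enzyme, 129 kb away, at 26.6 ± 1.14 CPM in no-UVB males and 30.7 ± 2.23 CPM in UVB males. The nearest on the upper side was *Ythdc1*, a reader of RNA methylation, 58.3 kb away, at 72.5 ± 7.48 and 75.4 ± 4.56 CPM. The remaining family member at this locus, *Tmprss11c*, had 0 counts in all 16 libraries.

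The promoters of 5 proteases were in the RefSeq promoter table, which was made on GRCm38.p6, and each matched GRCm39 exactly at 1 place. The 250 bases before the start site are shown for *Tmprss11b*, the protease with the highest level in UVB males per kb among those at the floor in control males, and for *Tmprss11d* and *Tmprss11f*, the members with a match to the AP-1 heptamer TGANTCA (capitals), the sequence bound by Jun and Fos proteins. They lie on the minus strand at chr5:86824158-86824407, chr5:86521247-86521496 and chr5:86780284-86780533.
Tmprss11b: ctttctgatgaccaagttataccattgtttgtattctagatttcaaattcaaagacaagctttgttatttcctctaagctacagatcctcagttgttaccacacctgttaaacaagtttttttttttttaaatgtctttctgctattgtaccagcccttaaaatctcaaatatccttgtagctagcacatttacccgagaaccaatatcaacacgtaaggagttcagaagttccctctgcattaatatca
Tmprss11d: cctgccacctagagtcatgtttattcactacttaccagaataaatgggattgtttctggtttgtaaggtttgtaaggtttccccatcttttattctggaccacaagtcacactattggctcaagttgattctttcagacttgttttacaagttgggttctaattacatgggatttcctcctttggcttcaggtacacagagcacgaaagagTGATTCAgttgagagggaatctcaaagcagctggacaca
Tmprss11f: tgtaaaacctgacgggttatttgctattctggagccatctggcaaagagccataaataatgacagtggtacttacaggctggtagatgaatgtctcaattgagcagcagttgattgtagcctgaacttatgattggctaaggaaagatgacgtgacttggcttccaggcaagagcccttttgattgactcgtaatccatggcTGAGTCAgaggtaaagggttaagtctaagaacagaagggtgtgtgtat
The match began 39 bases before the start site in *Tmprss11d* and 48 bases before it in *Tmprss11f*, and 6.87% of 27025 promoters of this length in the table hold the heptamer, which reads the same on both strands. The RefSeq start of *Tmprss11d* lies 33626 bases inside the GENCODE gene. On both strands, the C/EBP sequence TTGCNNAA (9.55% of promoters), the grainyhead-like sequence AACNGGTT (1.71%) and the TATA box TATAAA (13.0%) were in 0 of the 5 promoters. *Tmprss11d* and *Tmprss11f* belong to different kinds by response, with the controls of *Tmprss11f* at 25.5 CPM or more and those of *Tmprss11d* at 0 to 0.65 CPM.

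Several members ranked the irradiated mice in the same way. In UVB females, replicate 2 was the highest and replicate 4 the lowest for *Spink7*, *Tmprss11a*, *Tmprss11b*, *Tmprss11d* and *Tmprss11f*, but replicate 2 was the lowest for *Tmprss11e* and replicate 1 the highest for *Tmprss11g*. In UVB males, replicate 4 was the lowest for all 7 members, and replicate 2 was the highest for *Tmprss11a*, *Tmprss11b*, *Tmprss11d*, *Tmprss11e* and *Tmprss11g*. In the control groups some members also shared an order and others did not. In no-UVB males *Spink7*, *Tmprss11f* and *Tmprss11g* ranked the mice alike. Among no-UVB females *Tmprss11b* ranked them like *Tmprss11d*, and *Tmprss11e* like *Tmprss11g*. The correlation of log2 CPM over the 16 mice was 0.964 between *Spink7* and *Tmprss11b*, 0.954 between *Tmprss11b* and *Tmprss11d* and 0.932 between *Spink7* and *Tmprss11d*, and the lowest among the 21 pairs was 0.58, between *Tmprss11a* and *Tmprss11g*. These values are a description, since the mice share 4 group means.

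Among 15112 genes with a mean of at least 1 CPM, those most like *Spink7* over the 16 mice were *Olah* (Pearson r = 0.993), *Uchl3* (0.988), *Stfa1* (0.988), *Gm47128* (0.987) and *Cstdc5* (0.987). *Olah*, which encodes a thioesterase of fatty acid synthesis, had 14.7 ± 3.80 CPM in UVB males and 2.99 ± 1.83 CPM in UVB females, with 0.0886 ± 0.0601 and 0.0596 ± 0.0160 CPM in the controls. *Stfa1* and *Cstdc5* belong to the stefin group of cysteine protease inhibitors. The genes most like *Tmprss11b* were *Sptlc1* (0.981), *Atp6v1a* (0.977), *Lce3e* (0.977), *Akr1d1* (0.977) and *Gjb6* (0.974). *Lce3e*, a late cornified envelope gene, had 37.2 ± 18.9 CPM in UVB males and 4.41 ± 1.28 CPM in UVB females, and *Gjb6*, which encodes connexin 30, had 37.6 ± 9.68 and 6.52 ± 2.21 CPM.

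Some markers of epidermal keratinocytes moved with the members. For UVB, 5 of 9 were called higher in males (4.08% of all genes tested) and 3 of 9 in females (1.63%). *Trp63* (log2 fold change 0.07 in males and -0.21 in females), *Krt5* (0.29 and -0.23), *Dsp* (0.36 and -0.01) and *Cdh1* (0.54 and 0.08) were called in neither sex. Of 9 such markers, 7 were higher in UVB males than in UVB females (12.8% of all genes tested), and their summed level was 25300 to 34900 CPM in UVB males, 15200 to 19100 CPM in UVB females, 10500 to 16100 CPM in no-UVB males and 9280 to 13800 CPM in no-UVB females. Most of that sum is keratin RNA, and some keratins were themselves called higher for UVB, such as *Krt1*, at 835 ± 318 CPM in no-UVB males and 7220 ± 1460 CPM in UVB males. Per 10000 CPM of these markers in the same mouse, *Spink7* was at 12.9 to 17.3 in UVB males and 1.23 to 8.30 in UVB females, a ratio of means of 4.37 in place of 8.19. *Tmprss11b* (7.65) and *Tmprss11a* (21.3) also kept every UVB male above every UVB female. *Tmprss11d* overlapped on this scale (ratio 1.74), and for *Tmprss11e* and *Tmprss11f* every UVB male was below every UVB female (ratios 0.809 and 0.572). The part of keratinocyte content in the levels was not tested beyond this division, which was chosen after seeing the data.

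**Figure D4:**
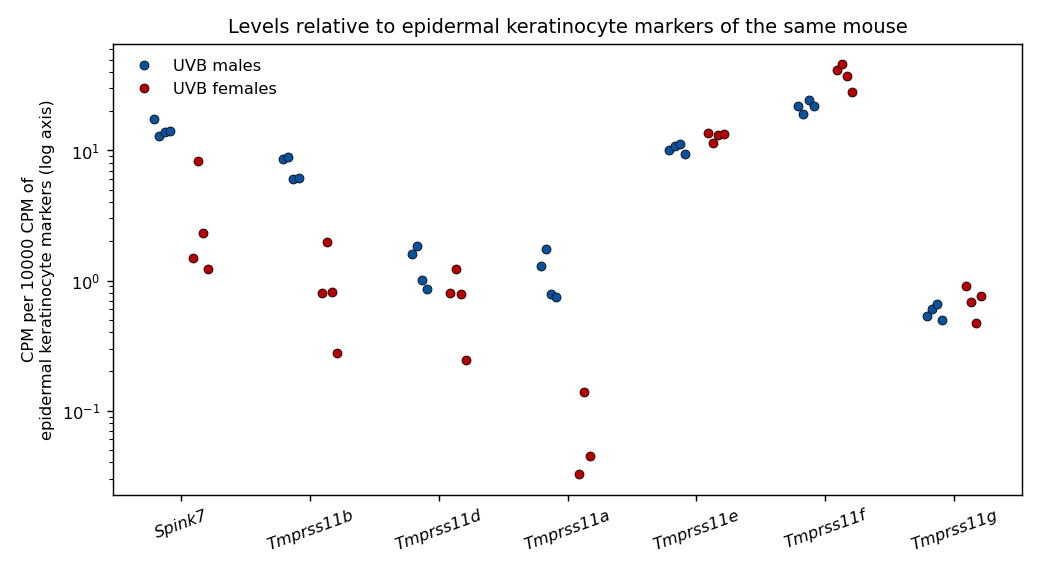
Level of each gene per 10000 CPM of 9 summed epidermal keratinocyte markers of the same mouse (vertical axis, log scale) in UVB males and UVB females; each point is 1 mouse, and the UVB female with 0 counts of *Tmprss11a* is not drawn. *Spink7*, *Tmprss11b* and *Tmprss11a* were above the females in every male, *Tmprss11d* and *Tmprss11g* overlapped, and *Tmprss11e* and *Tmprss11f* were below the females in every male.

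Since several members are known from the mouth and oesophagus, 9 markers of that epithelium were read as well. *Krt13* had at most 7 counts and *Krt76* at most 1 count in any mouse. The summed level of the 9 was 16.6 to 22.0 CPM in no-UVB males and 19.9 to 26.9 CPM in UVB males. In females it was 15.3 to 19.1 CPM without UVB and 19.3 to 23.3 CPM with UVB. The largest part of that sum was *Mal*, at 15.6 ± 1.63 CPM in no-UVB males and 12.1 ± 1.33 CPM in UVB males. For UVB in males, 3 of the 5 tested were called higher (4.08% of all genes tested), namely *Sprr3* (log2 fold change 6.04), *Crnn* (2.56) and *Psca* (1.36). Between UVB males and UVB females 2 of 6 tested were higher, *Sprr3* and *Crnn* (12.8% of all genes), and 2 were lower, *Mal* and *Muc4* (12.5%). *Sprr3* and *Crnn* had too few counts to be tested among females and *Muc4* among males, so these 3 passed the filter on low counts through the group where they are high and are given as a description. Of 12 neutrophil markers 9 were tested, and 4 were higher in UVB males than in UVB females (*Cxcr2*, *S100a8*, *S100a9* and *Mmp8*, against 12.8% of all genes) and 1 was lower (*Mmp9*, against 12.5%). *Mmp8* had too few counts to be tested among females and passed the filter through the UVB males. The 12 had a summed level of 125 to 221 CPM in UVB males and 88.4 to 97.6 CPM in UVB females. In the controls it was 118 to 157 CPM in males and 93.4 to 143 CPM in females. The largest part of that sum was *Il1r2*, at 105 ± 18.4 CPM in no-UVB males and 59.9 ± 10.3 CPM in UVB males. *Ly6g* had at most 1 count, *S100a8* and *S100a9* are also made by keratinocytes, and the part of neutrophils in the members' levels was not tested.

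Related genes were read from 3 lists. Of 13 other membrane-anchored proteases, 7 were tested for UVB in males and 1 was called higher (4.08% of all genes tested). That was *Tmprss4*, known from epithelia and carcinomas, at 62.7 ± 6.68 CPM in no-UVB males and 155 ± 10.8 CPM in UVB males (log2 fold change 1.33), with 57.3 ± 6.60 and 109 ± 4.91 CPM in females (0.94). With no limit on the fold change, 5 of the 7 had an edgeR adjusted p under 0.1 in males, 4 of them higher and *Hpn* lower (log2 fold change -0.51), where 59.6% of all genes did. In females 3 of 8 did, at log2 fold changes from 0.37 to 0.94, where 23.4% of all genes did. Between UVB males and UVB females 3 of 8 were higher in males (12.8% of all genes), namely *Tmprss4* (0.51, edgeR adjusted p = 0.00134), *Tmprss13* (0.31, edgeR adjusted p = 0.0521) and *St14*, which encodes matriptase (0.30, edgeR adjusted p = 0.0795). *Tmprss4* also passed the interaction test (0.38, edgeR adjusted p = 0.0983).

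Of 11 other *Spink* genes, 2 had enough counts to be tested in each sex. *Spink12* was called higher in males, from 0.0778 ± 0.0734 to 2.85 ± 3.6 CPM, with UVB males ranging from 0.678 to 8.23 CPM and UVB females at 0.0897 ± 0.0461 CPM (fitted log2 difference 4.89); it passed the filter on low counts through the UVB males, and no p-value is given. *Spink5*, which encodes LEKTI, the main kallikrein inhibitor of the epidermis, stood at 714 ± 49.3 and 1010 ± 80.3 CPM in males and 768 ± 181 and 925 ± 152 CPM in females.

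Of 14 partners and substrates of epithelial serine proteases, 3 were called higher for UVB in males (4.08% of all genes tested), and 2 of 13 tested were called higher in females (1.63%). The kallikreins *Klk5*, known to be restrained by SPINK7, and *Klk7* were called in both sexes. *Klk5* had 63.8 ± 13.5 and 164 ± 18.4 CPM in males without and with UVB and 53.7 ± 8.84 and 128 ± 19.2 CPM in females. *Klk14* was called in males, at 0.313 ± 0.142 and 3.17 ± 3.20 CPM, and had too few counts to be tested in females. After UVB 5 of the 14 were higher in males than in females (12.8% of all genes), namely *Klk14* (log2 difference 3.21), *Serpinb2* (1.01), *Scnn1g* (0.62), *Klk7* (0.49) and *Spint1* (0.35). *Klk14* passed the filter on low counts through the UVB males, so its place in that count is a description. *F2rl1*, the gene of protease-activated receptor 2, stood at 44.2 ± 2.16 and 40.8 ± 4.99 CPM in males and 39.9 ± 6.56 and 38.8 ± 11.1 CPM in females.

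**Figure D5:**
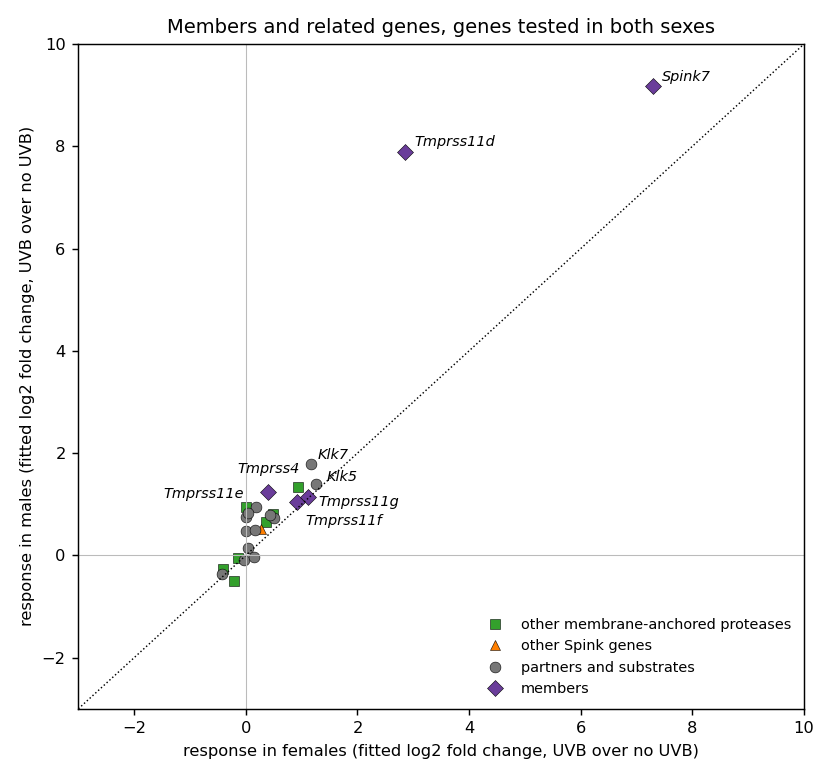
Fitted log2 fold change of UVB over no UVB in females (horizontal axis) and males (vertical axis) for 5 members and 21 related genes that were tested in both sexes; the dotted line marks equal values. *Spink7* (7.29 and 9.18) and *Tmprss11d* (2.85 and 7.89) stood apart from the other genes, and *Tmprss11a*, *Tmprss11b*, *Spink12* and *Klk14* are not drawn because they were not tested in females.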

How the data were processed

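Strand-specific poly(A) libraries from whole dorsal skin were aligned by the authors with STAR to GRCm39, as the study's methods and processing notes give it, and deposited as raw read counts per gene. The annotation release is not given in the sources used here. The deposited counts in column 4, those on the strand of the gene, were used, and 3.63 to 4.23% of reads lay on the other strand. Identifiers were named with GENCODE M39 (54749 of 55359 matched). From the deposited counts, CPM was computed with TMM scaling, and edgeR 4.0.16 (R 4.3.3) was run with filterByExpr, robust glmQLFit, glmQLFTest and Benjamini-Hochberg adjustment over all genes tested. UVB was compared with no UVB within each sex, on 8 mice, with a call at an adjusted p under 0.1 and a log2 fold change past 1. The interaction and both comparisons between the sexes used all 16 mice and an adjusted p under 0.1. Every SE was computed as the size of the fitted log2 value divided by the square root of the F statistic. For correlations, a prior count of 2 was added before CPM values were put on the log2 scale. The scripts were tested on simulated data. DESeq2 1.42.0, other scaling and filtering, unstranded counts, the replicate number as a block and each mouse left out were tried as alternatives. The members, gene lists and tests were chosen with earlier results of these data known. By rule, the genes named were all members, the called genes of the 3 lists of related genes, the nearest tested neighbors and the 5 genes most like *Spink7* and *Tmprss11b*. *Spink5*, *F2rl1*, *Hpn*, *Tmprss11c* and the marker genes shown were named outside it, after their values were seen. 1 gene was left out of the list of partners and is not reported here. The p-values measure the spread between these mice, and depth limits what can be seen under 3 counts.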

Additional observations from a re-analysis of the deposited data

Results flagged for a closer look

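No-UVB female replicate 1 stood apart from the other no-UVB females for 2 proteases that were near the floor in controls, by the gap to its nearest group mate. It had 0.346 CPM of *Tmprss11b* (8 counts), where the others had 0.0655 to 0.101 CPM. It had 0.65 CPM of *Tmprss11d* (15 counts), where the others had 0 to 0.0505 CPM. By chance about 1 in 20 such groups would be flagged, and 23 groups of 4 mice were looked at in this way. The same mouse had the highest *Tmprss11e* level of the no-UVB females, at 26.5 CPM. The difference between the responses of males and females was called for *Tmprss11a*, with a log2 value of 5.16, and for *Tmprss11b*, with 5.64. Both are a description, since the members were picked by these responses. Without no-UVB female replicate 1 the value for *Tmprss11b* was 4.84 and was no longer called.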

How the results depend on the processing

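Of the counts of members called, 84 of 91 alternatives stayed within 1.5 times the value reported. Testing every gene with at least 1 count left 1 member called for the interaction, *Tmprss11a*, and the DESeq2 Wald test gave 1 member for no-UVB males against no-UVB females, *Tmprss11d*. With each mouse left out in turn, the number of members called ranged from 5 to 7 for UVB in males, from 2 to 4 for UVB in females, from 1 to 3 for the interaction, from 3 to 5 for UVB males against UVB females and from 0 to 0 for no-UVB males against no-UVB females. The interaction count was 1 without UVB female replicate 1, no-UVB female replicate 1, UVB male replicate 1 or no-UVB male replicate 1 or 2. The DESeq2 Wald test called 3 members for the interaction, *Tmprss11b*, *Tmprss11d* and *Tmprss11e*, and gave *Tmprss11a* no adjusted p. The direction of no tested call was reversed. Deviations of same-numbered mice from their group means correlated at -0.123 to 0.217 (24 pairs, of which 6 were over 0.1). Pairs with different numbers lay between -0.192 and 0.258. Whether mice of the same number were handled together is not known from these values. With the replicate number as a block, 7, 3, 3, 5 and 0 members were called in these comparisons, in the same order, with *Tmprss11d* added for the interaction and *Tmprss11e* for UVB males against UVB females (edgeR adjusted p = 0.0839). Counting without regard to strand raised *Tmprss11a* to 0.66 CPM in no-UVB males, 0.76 CPM in no-UVB females and 0.686 CPM in UVB females, and lowered its log2 difference between UVB males and UVB females from 5.14 to 2.53 and its interaction from 5.16 to 2.76. The cause of these shifts was not tested. *Tmprss11a* in females, *Spink7* in all controls and the 4 members at the floor in control males are limited by depth.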
